A study of Mus musculus with 8 samples.

Results

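TEC is the gene class that GENCODE and Ensembl give to stretches of genome with evidence of transcription, often a single unspliced region, that still await experimental proof and to which no protein or RNA function has been assigned. The count table held 3160 rows of this class among 54532 genes. Of these, 127 rows were chosen by a sum of raw counts over the 8 libraries of at least 400. Since that sum selected them, their abundance is a description and not a finding. By coordinates, 73 of the 127 overlapped the span of a protein-coding gene and 54 lay between such genes. The 73 split further into 41 on the same strand as the gene and 32 only on the opposite strand.

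The libraries were made from mouse retina, the nervous tissue that converts light into neural signals. Of the 8 libraries, 4 carried the label sIVs (small intracellular vesicles, taken from inside cells) and 4 the label PBS, the control, with replicates numbered 1, 3, 4 and 5 in each group. All were made from poly(A)-selected RNA with a protocol that marks strand and were read as 150 bp pairs. The titles of all 8 also share the prefix LR, which was not interpreted here. The labels gave no strain, age, dose, route, time or injury for either group and did not say whether replicates were separate animals, so p-values reflect the spread among these libraries alone, and part of it may be technical.

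Transcripts that are cut and polyadenylated by the usual machinery carry a signal hexamer, most often AATAAA or ATTAAA, a short way before their end, and poly(A) selection captures RNA through the tail that is added there. An intron is removed from the pre-mRNA in the nucleus and normally degraded, so reads from inside an intron can come from unspliced pre-mRNA, from a retained intron, or from a separate transcript on the same strand. Short-read counts over such a region do not tell these sources apart. Rows on the opposite strand of a gene can be antisense transcripts, and rows just downstream of a gene on its strand can be extensions of its last exon.

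The last 50 bases of 8 rows show both kinds of annotated end. They are from GENCODE M21 transcripts (GRCm38, the assembly also called mm10), read 5′ to 3′ on the row's own strand, with the hexamers AATAAA and ATTAAA in capitals. The first 4 are the intergenic rows with a hexamer and the highest mean level per length, and each ends 10 to 20 bases after its last hexamer.
A930036K24Rik: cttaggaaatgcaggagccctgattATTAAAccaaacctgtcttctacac
Gm37583: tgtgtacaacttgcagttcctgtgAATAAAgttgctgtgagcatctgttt
Gm47160: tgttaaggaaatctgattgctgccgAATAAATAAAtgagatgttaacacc
A930005G22Rik: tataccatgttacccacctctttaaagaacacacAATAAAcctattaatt
In Gm47160 the capitals mark 2 overlapping copies of AATAAA. The other 4 lie inside an intron of a protein-coding gene on its strand and have no such hexamer in the window. They were picked for their low counts in the library sIVs replicate 4, which is described further on. They do not include every such row: Gm36989, in an intron of Matr3, had 3 counts in that library and is not shown.
A930004J17Rik: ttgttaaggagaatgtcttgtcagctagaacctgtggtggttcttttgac
Gm42748: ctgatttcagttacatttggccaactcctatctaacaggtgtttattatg
Gm38104: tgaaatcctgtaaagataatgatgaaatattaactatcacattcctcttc
Gm36936: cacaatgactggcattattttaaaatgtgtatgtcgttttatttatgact
These windows sit at chr9:107681232-107681281, chr4:136642019-136642068, chr9:47473049-47473098 and chr5:115420597-115420646 for the first set, and at chr4:131883188-131883237 (inside Srsf4), chr5:122167888-122167937 (Ppp1cc), chr1:176751521-176751570 (Cep170) and chr9:72730839-72730888 (Nedd4) for the second.

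Where the rows lie differed between the classes. Of the 41 same-strand rows, 34 lay in an intron of the host gene, touching no exon of it, 3 touched coding exon and 4 touched exon outside the coding part. Of the 32 opposite-strand rows, 22 covered exon of the host and 10 lay in an intron. Of the 54 intergenic rows, 23 were downstream of the nearest protein-coding gene on its strand, and 35 were within 5000 bases of such a gene (median distance 2902 bases, range 52 to 55255). Nearly all were simple in structure: 125 of the 127 have 1 exon in GENCODE M21, and 126 have the same start and end there as in the count table. Their length ranged from 210 to 30942 bases with a median of 2368. The share on the same strand was lower than among all 3160 rows of the class (32.3% against 48.0%) and the share on the opposite strand was higher (25.2% against 14.7%). At the threshold, Gm37174 and 4930413G21Rik were just inside with 400 counts each, and Gm37941 and Gm37776 just outside with 396 and 394.

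A poly(A) signal hexamer lay in the last 50 bases of 64 of the 126 rows with a sequence (50.8%, 95% Wilson interval 42.2 to 59.4). The hexamer had no part in the count threshold that chose the rows. Whether poly(A) features had a part in their annotation as TEC, or in where their ends were placed, was not examined. The share was 24.4% in same-strand rows (10 of 41, interval 13.8 to 39.3), 65.6% in opposite-strand rows (21 of 32, 48.3 to 79.6) and 62.3% in intergenic rows (33 of 53, 48.8 to 74.1). Opposite-strand rows in a host intron had it in 9 of 10 cases and same-strand rows in a host intron in 8 of 34. In the same rows, 6.35% of the first 50 bases and 2.38% of the middle 50 bases held one of the hexamers. Among rows of other classes with at least 400 counts too, the share was 74.9% of protein-coding rows, 57.0% of lincRNA rows (long intergenic non-coding RNA), 48.7% of antisense rows and 53.8% of the 13 sense intronic rows. It was lower where all rows were taken, whatever their counts, at 68.9%, 40.9%, 44.6% and 28.1% in that order, and it was 28.1% of TEC rows below 400 counts. With these settings the interval of same-strand rows lay below the intervals of the other 2 position classes. It did not hold in full under either of the other settings tried. In the last 100 bases the share of same-strand rows was 36.6% (interval 23.6 to 51.9), which overlapped the 48.3 to 79.6 of opposite-strand rows and the 48.8 to 74.1 of intergenic rows. With AATAAA alone it was 19.5% (10.2 to 34.0), below the 39.3 to 71.8 of opposite-strand rows but overlapping the 29.3 to 54.9 of intergenic rows. The intervals treat rows as independent and describe the number of rows only.

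**Figure D1:**
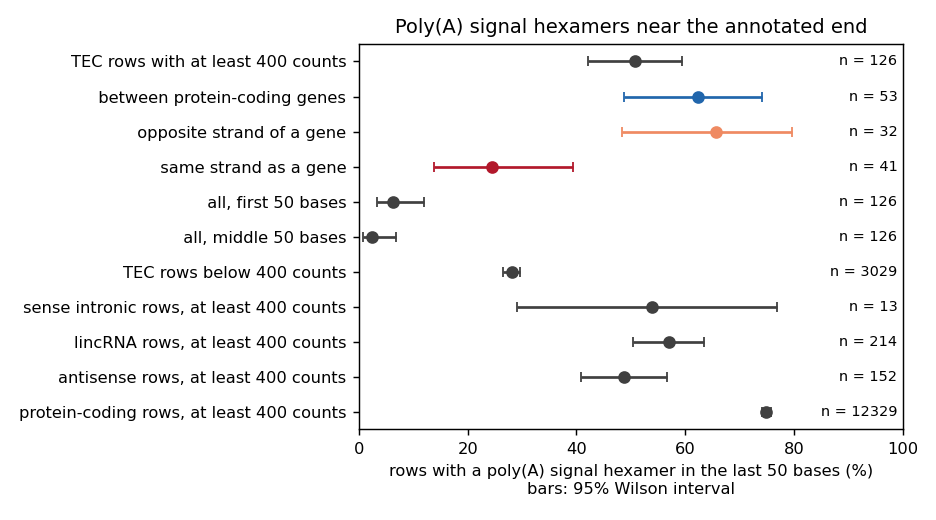
Share of rows (horizontal axis, percent) with AATAAA or ATTAAA in the last 50 bases on the row's own strand, for each set named on the vertical axis, with 95% Wilson intervals and n at the right. Intergenic and opposite-strand TEC rows stand at 62.3% and 65.6%, same-strand rows at 24.4%, and the first and middle 50 bases of the same rows at 6.35% and 2.38%; the other classes are shown for rows with at least 400 counts.

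Per length, the classes had similar typical levels and different extremes. Levels are given as FPKM, fragments per kilobase of the row's length, scaled to library size. The median row stood at 2.25 FPKM in the same-strand class, 3.34 in the opposite-strand class and 2.99 in the intergenic class. The highest row was AC160637.1 in the same-strand class, at 19.6 FPKM, and A930036K24Rik in the intergenic class, at 84.5 FPKM. The 127 rows held 66.7% of all counts on TEC rows. Together they took 1269 to 1684 of every 1000000 counts in the PBS libraries and 1109 to 1662 in the sIVs libraries, a share of the raw total with no normalization factor.

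The intergenic rows included the most abundant of all. A930036K24Rik (chr9:107680082-107681281) lies 219 bases beyond the end of Sema3f, an axon guidance gene, on the other strand. Its CPM (counts scaled to library size with the TMM factor, used for all single rows and genes) were 146, 59.3, 90.8 and 59.9 in PBS replicates 1, 3, 4 and 5 and 132, 88.6, 167 and 84.4 in sIVs replicates 1, 3, 4 and 5. The groups overlapped, and the highest value was that of sIVs replicate 4. Its level per length was 206% of that of Sema3f.

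Gm37583 (chr4:136639582-136642068) begins 472 bases beyond the end of Lactbl1 on the same strand. It stood at 107, 128, 135 and 119 CPM in PBS and at 116, 112, 189 and 152 CPM in sIVs. Lactbl1 stood at 182, 206, 189 and 168 CPM in PBS and at 173, 198, 75.0 and 178 CPM in sIVs. In sIVs replicate 4 the row was thus at its highest and the neighbouring gene at its lowest, with 2513 counts of Gm37583 per 1000 counts of Lactbl1 there and 568 to 857 in the other 7 libraries.

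Gm47160 lies 55255 bases from Cadm1, a cell adhesion gene, the largest distance among the intergenic rows. Its CPM were 82.2, 28.8, 39.4 and 28.1 in PBS and 84.9, 47.4, 46.0 and 35.2 in sIVs. Replicate 1 was the highest library in both groups. The sum of 4 rod marker genes (Gnat1, Pde6b, Nrl and Sag) was also highest there: it stood at 20194 and 20788 CPM in the replicates numbered 1 and at 11745 to 19477 CPM in the other 6 libraries. Of the 4 genes, Sag alone was highest elsewhere, at 6770 CPM in sIVs replicate 4 against 4634 and 4928 in the replicates numbered 1. Whether the rods' share of RNA sets the level of Gm47160 was not tested, and in bulk tissue fewer cells of a type and less RNA per cell cannot be told apart.

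Of the other intergenic rows with high levels, A930005G22Rik, near the RNA-binding protein gene Msi1, ranged from 29.3 to 62.2 CPM, 1700029B24Rik, near the fatty acid-binding protein gene Fabp12, from 6.86 to 15.8 CPM, and Gm37614 from 2.77 to 9.14 CPM. None separated the groups. The ratio of 1700029B24Rik to Fabp12 was steadier than the row itself: the SD of its log2 CPM over the 8 libraries was 0.40, and that of the log2 ratio 0.21.

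Whether the counting used strand is not given in the sources used here. Where the 32 opposite-strand rows overlap the span of their hosts, reads of row and host therefore cannot be told apart in these counts. Some of these rows differed from their hosts across libraries. Particl lies with 32.6% of its length over Mat2a, whose product makes the methyl donor S-adenosylmethionine. It stood at 15.3, 11.3, 17.1 and 10.2 CPM in PBS and 15.1, 14.2, 32.0 and 15.2 in sIVs, with Mat2a between 356 and 431 CPM. Gm43980 lies in an intron of the splicing regulator gene Tra2a and touches no exon of it. It stood at 28.8, 19.0, 17.4 and 15.2 CPM in PBS and 23.4, 21.9, 1.77 and 13.1 in sIVs, with Tra2a between 136 and 197 CPM. In both cases sIVs replicate 4 stood outside the range of the other 7 libraries, above it for Particl and below it for Gm43980. Gm43622, also in an intron of its host, the neural proteoglycan gene Cspg5, ranged from 15.8 to 30.3 CPM with overlapping groups. In 3 rows, all on the opposite strand, the level per length was above that of the host: Gm10686 at 285% of Nlrx1, 4930466K18Rik at 259% of Mcm9 and Gm44136 at 112% of Abhd18.

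Among same-strand rows, AC160637.1 (chr9:59672814-59676700) was the highest. It shares 767 of its 3887 bases with exons of Pkm, the pyruvate kinase gene of glycolysis, and reads over the shared bases cannot be assigned to 1 of them from these counts. Its CPM were 115, 83.3, 101 and 63.7 in PBS and 95.7, 89.4, 15.3 and 57.6 in sIVs. Pkm was highest, at 3944 CPM, in sIVs replicate 4, where AC160637.1 was lowest, and stood between 2372 and 3028 CPM elsewhere.

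A930004J17Rik (chr4:131878628-131883237) lies in an intron of Srsf4, which encodes a serine- and arginine-rich splicing factor. It stood at 39.9, 29.7, 26.6 and 24.5 CPM in PBS and at 33.0, 33.6, 0.851 and 15.0 CPM in sIVs, where the third value rests on 13 counts. Srsf4 stood at 81.3, 56.3, 62.1 and 58.3 CPM in PBS and 69.1, 67.4, 15.8 and 49.4 in sIVs. Both were lowest in sIVs replicate 4 and next lowest in sIVs replicate 5. Relative to its host the row was low there too: it had 53.9 counts per 1000 of Srsf4 in sIVs replicate 4, 304 in sIVs replicate 5 and 420 to 528 in the other 6 libraries.

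Gm42748 (chr5:122165597-122167937), in an intron of Ppp1cc, the gene for a catalytic subunit of protein phosphatase 1, also stood apart in sIVs replicate 4, with an even host. Its CPM were 6.12, 5.27, 4.37 and 5.36 in PBS and 8.10, 5.82, 0.131 and 5.29 in sIVs, with 2 counts in sIVs replicate 4. Ppp1cc stayed between 303 and 346 CPM in all 8 libraries. At the other end, Gm42732, in an intron of Ociad1, reached 70.7% of its host's level per length, the highest among the named same-strand rows. Gm37764, in an intron of Pdc, the photoreceptor phosducin gene, stood at 0.737% of its host's level.

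**Figure D2:**
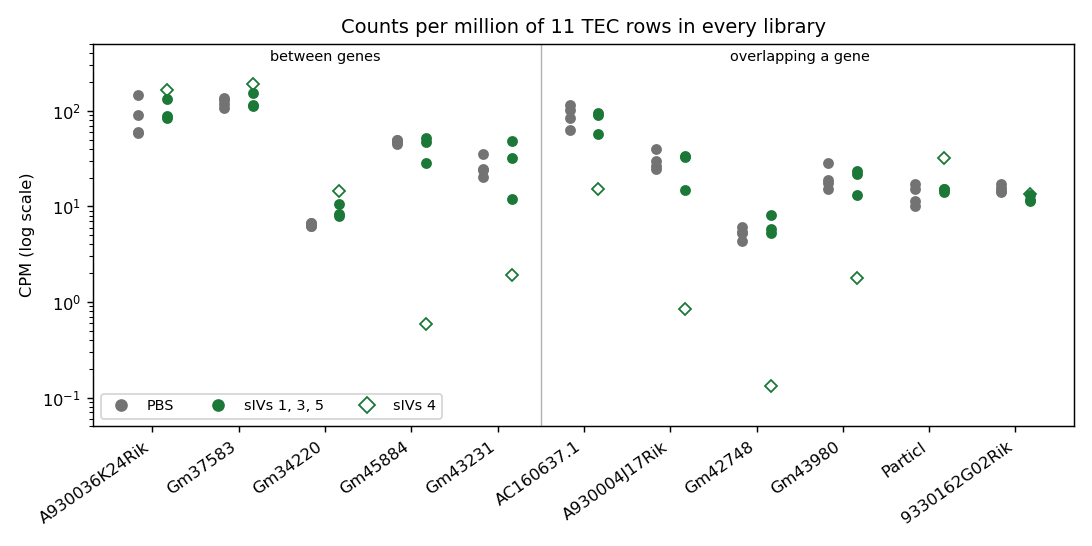
CPM (vertical axis, log scale) of 11 TEC rows (horizontal axis) in every library, PBS in grey and sIVs in green, with sIVs replicate 4 as an open diamond; 5 rows lie between genes and 6 overlap a gene. The diamond is the lowest of 8 for Gm45884, Gm43231, AC160637.1, A930004J17Rik, Gm42748 and Gm43980 and the highest for A930036K24Rik, Gm37583, Gm34220 and Particl.

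The comparison of the groups asked which of these transcripts differed between vesicle and control retinas. None of the 127 rows, all of which were tested, passed edgeR's quasi-likelihood test at a Benjamini-Hochberg adjusted p of 0.05, and none of all 17004 tested genes did (0%). Adjusted p-values began at 0.81. Before adjustment, 3 rows had p under 0.05, 2 higher and 1 lower in sIVs (1.5% of all tested genes, 1.04% higher and 0.459% lower). DESeq2 called 0 rows too, with 4 at an unadjusted p under 0.05. The simplest readout, complete separation of the groups, held for 2 rows higher in sIVs (1.08% of all genes) and 2 lower (0.929%), shares near those of all genes.

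Both separated rows that were higher in sIVs lie between genes, upstream of the nearest gene and on the other strand from it. Gm34220 (chr12:108790035-108792743) lies 230 bases from Yy1, the gene for a zinc finger transcription factor, and stood at 6.65, 6.31, 6.72 and 6.20 CPM in PBS and at 8.24, 7.95, 14.7 and 10.5 CPM in sIVs. Every sIVs library was above every PBS library, with a log2 difference of 0.68 ± 0.22 (SE, n = 4 per group; edgeR adjusted p = 0.81), and of 0.46 without sIVs replicate 4, the highest library. Its unadjusted p from edgeR was 0.0115. Yy1 stood at 129 to 143 CPM. Gm38300 lies near Hnrnpu, the gene for a nuclear RNA-binding protein, and stood at 4.38, 4.05, 4.50 and 3.79 CPM in PBS and at 4.80, 5.33, 8.51 and 4.68 CPM in sIVs. Its log2 difference was 0.48 ± 0.23 (SE, n = 4 per group; edgeR adjusted p = 0.81), and 0.24 without sIVs replicate 4.

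Both separated rows that were lower in sIVs overlap a gene. D930036K23Rik (chr2:14016086-14020049), in an intron of Hacd1, a gene of very long chain fatty acid synthesis, stood at 4.08, 4.46, 4.70 and 4.94 CPM in PBS and at 2.58, 3.48, 3.60 and 3.44 CPM in sIVs. Its log2 difference was -0.47 ± 0.19 (SE, n = 4 per group; edgeR adjusted p = 0.81), with an unadjusted p of 0.0377. 9330162G02Rik (chr7:59223847-59254788), the longest of the 127 and on the opposite strand of Ube3a, an imprinted ubiquitin ligase gene, stood at 14.1, 15.5, 17.2 and 14.4 CPM in PBS and at 13.3, 11.5, 13.6 and 11.6 CPM in sIVs. Its log2 difference was -0.29 ± 0.13 (SE, n = 4 per group; edgeR adjusted p = 0.81). For these 2 rows sIVs replicate 4 was not the lowest library, and without it the differences were -0.52 and -0.34. Gm48069, an intergenic row near Zfp846 that overlaps the antisense gene Fbxl12os, had an unadjusted edgeR p of 0.0459 (log2 difference 0.48 ± 0.21 SE, n = 4 per group), with overlapping groups.

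By class, the log2 difference was below 0 for 85 of the 127 rows, against 48.7% of all tested genes. It was below 0 for 35 of 41 same-strand rows, 18 of 32 opposite-strand rows and 32 of 54 intergenic rows. The median was -0.41 in same-strand, -0.13 in opposite-strand and -0.03 in intergenic rows, and 0.01 over all genes. A large part of this sat in sIVs replicate 4. Without it, the median was -0.12 in same-strand and 0.08 in opposite-strand rows. That of all 73 overlapping rows went from -0.32 to -0.07 and that of intergenic rows from -0.03 to 0.04. The counts below 0 went to 66 of 127, with 30 of 41 same-strand, 12 of 32 opposite-strand and 24 of 54 intergenic rows, against 49.6% of all genes. With sample weights (limma-voom) the median of overlapping rows was 0.01.

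Summed over rows, and again as a share of the raw total, the overlapping class took 685 ± 105 of every 1000000 counts in PBS and 579 ± 187 in sIVs (SD, n = 4 each), and the intergenic class 786 ± 67.6 and 809 ± 79.8. The difference of the overlapping class (-106) was about as large as the SD in PBS and smaller than that in sIVs, and was -23.8 without sIVs replicate 4. That of the intergenic class (23.3) was smaller than both SDs. In sIVs replicate 4 the overlapping rows took 333 of every 1000000 counts, and between 536 and 821 in the other 7 libraries. The intergenic rows took 775 there, inside the range of the others (704 to 926).

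**Figure D3:**
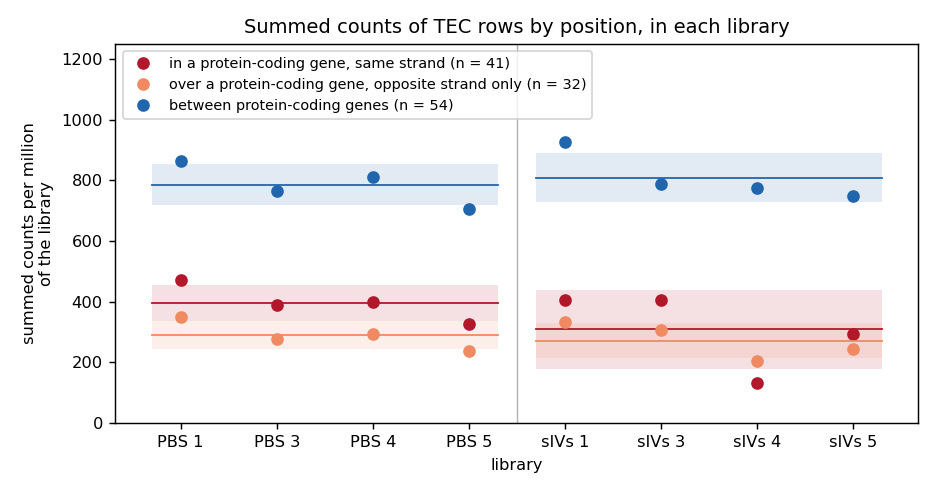
Summed counts for every 1000000 counts of the library (vertical axis; raw total, no normalization factor) of the 41 same-strand, 32 opposite-strand and 54 intergenic TEC rows in each library (horizontal axis), with the group mean as a line and 1 SD (n = 4) as a band. Same-strand rows stand at 131 in sIVs replicate 4, against 291 to 470 in the other libraries, while intergenic rows stay between 704 and 926.

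In the library sIVs replicate 4 the classes stood apart. Each row was compared there with its median over the other 7 libraries, on log2 CPM with a prior count of 2. A row was more than 4-fold below that median in 41 of the 127 cases, against 3.89% of all tested genes. These were 25 of 41 same-strand rows, 9 of 32 opposite-strand rows and 7 of 54 intergenic rows. In the other 7 libraries together, 1 row was that far below, the intergenic Gm13821 in PBS replicate 1, a library in which 1.73% of all genes were. The median difference in sIVs replicate 4 was -2.62 for same-strand, -0.54 for opposite-strand and -0.08 for intergenic rows. No test was made of the class difference, since the rows are not replicates and this is 1 library.

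**Figure D4:**
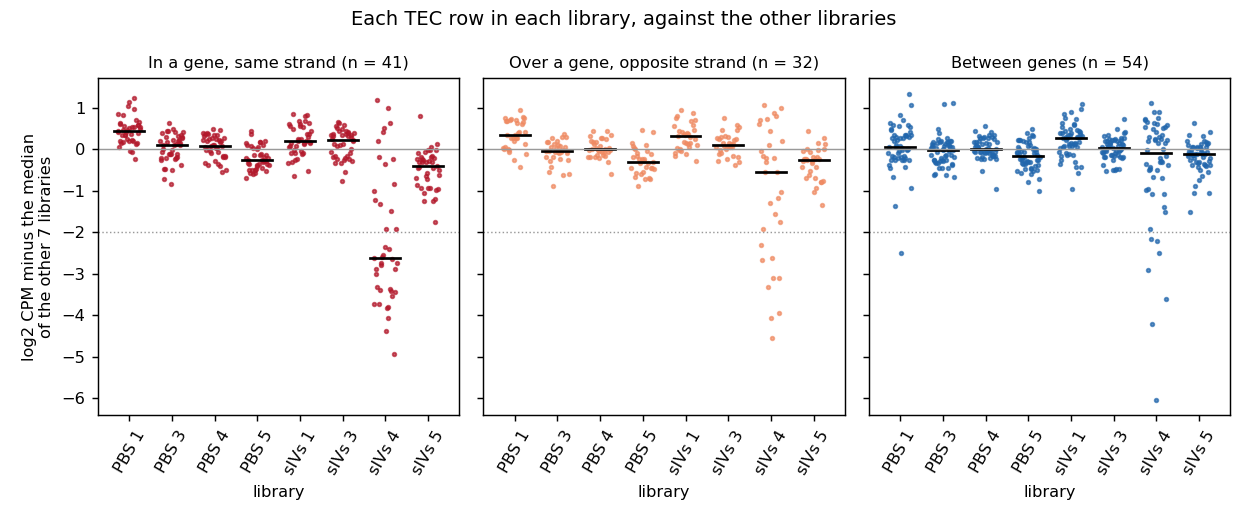
Log2 CPM of each TEC row minus its median over the other 7 libraries (vertical axis) in each library (horizontal axis), in 3 panels for same-strand, opposite-strand and intergenic rows; bars are medians and the dotted line marks a 4-fold lower level. In sIVs replicate 4, 25 of 41 same-strand, 9 of 32 opposite-strand and 7 of 54 intergenic rows lie below the line.

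Same-strand rows were low in sIVs replicate 4 both in introns (20 of 34 over 4-fold lower) and where they touched host exon (5 of 7). Those 25 lie in Srsf4, Ppp1cc, Matr3, Cep170, Nova1, Nedd4, Fryl, Cep164, Agpat5, Golgb1, Ddx24, Pdc, Anp32e, Itpk1, Ptbp2, Exoc5, Pcmtd1, Sec11a, Gtf2i, Mrpl3, Usp33, Cttnbp2, Pkm, Sfswap and Lrif1, a list drawn up after the values were seen. The furthest below with more than 3 counts was A930004J17Rik, whose median CPM over the other libraries was 34.9 times its value in sIVs replicate 4 (exact Poisson 95% interval of the low count 20.4 to 65.6, counting error only). Gm38104, in an intron of the centrosome gene Cep170, stood at 5.06 to 7.64 CPM in the 4 PBS libraries and at 6.45, 5.40, 0.327 and 3.30 CPM in sIVs, a ratio of 19.7 (8.44 to 60.7). Gm36936, in an intron of the ubiquitin ligase gene Nedd4, stood at 5.90 to 8.09 CPM in PBS and at 5.45, 7.60, 0.393 and 4.19 CPM in sIVs, a ratio of 17.4 (7.98 to 47.4). In both, sIVs replicate 5 was the next lowest library. Of the 41 rows that far below, 7 had only 2 or 3 counts in sIVs replicate 4, and for 32 the lower bound of the ratio was above 4.

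The host genes mostly stood near their level in the other libraries. Of the 41 hosts of same-strand rows, 1 was more than 4-fold below the other libraries in sIVs replicate 4, with a median difference of -0.12. The same-strand row was further down than its host in 34 of 41 pairs. Over the 8 libraries, the log2 ratio of row to host varied less than the row itself in 36 of the 73 overlapping pairs, and in 48 of 73 without sIVs replicate 4. For intergenic rows and their nearest gene it did in 15 of 49 tested pairs, and in 23 without that library.

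The 1 host more than 4-fold lower was Usp33, a deubiquitinase gene, at 32.3 CPM in sIVs replicate 4 and 111 to 230 CPM in the others. It holds 3 of the 127 rows. Gm43858, on its strand in an intron, stood at 26.5, 14.5, 18.2 and 10.7 CPM in PBS and at 22.4, 17.2, 2.68 and 9.35 CPM in sIVs, and had 83.2 to 118 counts per 1000 of Usp33 in every library. Its ratio to Usp33 was steady, with an SD of 0.22 on the log2 scale against 1.02 for the row. Gm43857 and Gm43859, on the opposite strand, were lowest in that library too, at 3.27 and 1.57 CPM.

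**Figure D5:**
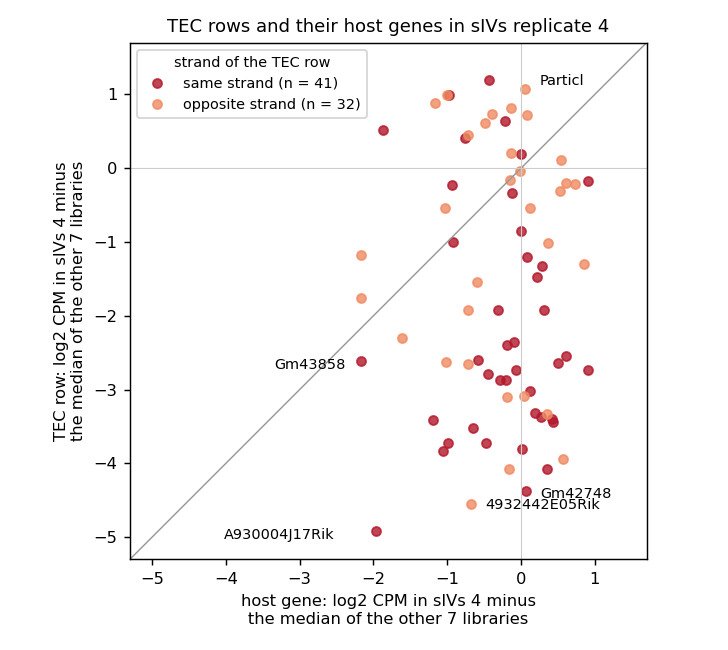
Log2 CPM in sIVs replicate 4 minus the median of the other 7 libraries for the host gene (horizontal axis) and the TEC row in it (vertical axis), for the 41 same-strand and 32 opposite-strand rows; the diagonal marks equal differences. Most same-strand rows lie well below the diagonal, with hosts near 0 (median -0.12), while Gm43858 lies close to it, with a host difference of -2.17 and a row difference of -2.62.

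In sIVs replicate 4, rows with and without the hexamer differed as well. Rows without it were more than 4-fold lower in 32 of 62 cases and rows with it in 8 of 64. Among same-strand rows these counts were 22 of 31 and 3 of 10, among opposite-strand rows 5 of 11 and 4 of 21, and among intergenic rows 5 of 20 and 1 of 33. The order was thus the same in each position class with the window of 50 bases. Its size among same-strand rows depended on the window. Gm43300, Gm36989, Gm38253, AC154232.2 and Gm38372 have a hexamer in the last 100 bases but not in the last 50. All are same-strand rows more than 4-fold lower, so the longer window narrows the contrast in that class. The intergenic rows with a hexamer had a median difference of 0.20 and those without -0.49. Intergenic rows downstream of a gene on its strand were that low in 1 of 23 cases and those in other positions in 6 of 31.

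The exceptions among intergenic rows were large. Of the 7 intergenic rows more than 4-fold lower, 3 overlap a gene of another, non-coding class (Gm38020, Gm43488 and Gm45110), against 9 of all 54. Gm45884, which lies 2903 bases beyond the end of Pura, a gene for a nucleic acid-binding protein, on its strand, stood at 49.6, 46.9, 45.0 and 49.3 CPM in PBS and at 52.0, 47.7, 0.589 and 28.5 CPM in sIVs. In sIVs replicate 4 it stood furthest below the other libraries of all 127 rows, a ratio of 80.9 (Poisson interval 42.6 to 177). Pura stood at 47.3 CPM there and 62.6 to 74.8 elsewhere. Gm45884 is the only row of the 127 without a sequence in GENCODE M21, so it is not in the hexamer counts. Gm43231 begins 124 bases from Msi1 on the other strand and stood at 35.4, 24.2, 24.5 and 20.3 CPM in PBS and at 48.0, 32.1, 1.90 and 11.8 CPM in sIVs. A930005G22Rik, on the same strand as Gm43231, 7099 bases from Msi1 and over the non-coding gene Gm13832, stood at 29.3 CPM there, just under the 30.2 to 62.2 CPM of the others. Gm38020, on the X chromosome, is 49485 bases from the nearest protein-coding gene but lies over the non-coding gene Ftx on the same strand, and stood at 13.8 to 18.8 CPM in PBS and at 14.2, 15.8, 0.720 and 8.39 CPM in sIVs. Rows more than 2-fold higher in that library numbered 3 of the 127, against 1461 of all 17004 tested genes. They were Particl, Gm34220 and Gm48114. The last, in an intron of the sterol transport gene Gramd1b, stood at 17.4 CPM there and at 5.03 to 13.3 in the others.

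With sIVs replicate 4 set aside, sIVs replicate 5 was most often the lowest of the 7 remaining libraries. It was lowest for 38 of 73 overlapping rows (22 of 41 same-strand and 16 of 32 opposite-strand) and 15 of 54 intergenic rows, against 21.3% of all tested genes. PBS replicate 5 was lowest for 15 of 73 and 15 of 54, against 15.4% of all genes. In the same-strand class the median difference from the other libraries was -0.39 in sIVs replicate 5 and -0.27 in PBS replicate 5, and 0.45, 0.20 and 0.24 in PBS replicate 1, sIVs replicate 1 and sIVs replicate 3.

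Other gene classes with at least 400 counts were less often low in sIVs replicate 4 than same-strand TEC rows. The share more than 4-fold lower was 1.43% of protein-coding rows (177 of 12336), 4.10% of processed transcripts (5 of 122), 6.98% of lincRNA (15 of 215) and 13.2% of antisense rows (20 of 152), with 3 of 13 sense intronic rows. Among same-strand TEC rows it was 61.0%.

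Several features of the whole libraries moved with sIVs replicate 4, and their part in these results was not tested. Depth did not set it apart, with 16009589 counts in a range of 13803958 to 16622259. The 5 long RNAs retained in the nucleus (Malat1, Neat1, Meg3, Miat and Snhg11) summed to 1081 CPM there and to 1848 to 2593 CPM elsewhere, with 4 of the 5 at their lowest; the exception was Neat1, at 44.9 CPM. Malat1 alone stood at 335 CPM, against 778 to 1339. Markers of the retinal pigment epithelium, the layer beneath the photoreceptors, summed to 419 CPM against 8.77 to 47.2 (5 of 7 highest there, while Best1 stayed at or under 0.181 CPM everywhere). Reactive glia markers summed to 562 CPM against 57.8 to 378, with 3 of 5 highest there. Gfap (102 CPM) and Osmr (37.0 CPM) lay inside the range of the other libraries. Markers of all 7 retinal cell types listed were present in every library, but the sums of 6 of the 7 lay outside the range of the other libraries in sIVs replicate 4. Cone (815 CPM against 530 to 756), horizontal (139 against 81.4 to 104), ganglion cell (616 against 454 to 497) and Mueller glia markers (3402 against 2942 to 3243) were above it. Bipolar (1053 against 1302 to 1564) and amacrine markers (395 against 444 to 486) were below it. Single genes in these lists did not all move with the sum. Those highest and lowest of 8 libraries there numbered 3 and 0 for cone, 1 and 2 for horizontal, and 3 and 1 for ganglion cell markers. They numbered 1 and 1 for Mueller glia, 1 and 2 for bipolar, and 0 and 2 for amacrine markers. The horizontal sum rested on Calb1 (133 CPM), with Onecut1 and Lhx1 at their lowest. Microglia markers (157 CPM against 28.3 to 150, 2 of 5 highest there) and red cell markers (24.1 against 3.91 to 13.8, 2 of 3 highest) were also above the range. PBS replicate 1 had the lowest microglia and reactive glia sums.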

How the data were processed

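RNA from mouse retina was measured in 8 libraries (4 labelled sIVs, 4 labelled PBS), with 13803958 to 16622259 counts per library. The table that the authors deposited holds raw, unnormalized counts for 54532 Ensembl genes, with coordinates and biotype. A second deposited table holds FPKM, fragments per kilobase scaled to library size. Per the submitters' processing notes the build was mm10. Aligner, counter and use of strand: not given in the sources used here.

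The 127 TEC rows with a sum of at least 400 counts were taken from the count table and placed by overlap of at least 1 base with the span of a protein-coding gene, on either strand. The rows and gene lists were chosen with earlier results of these data known. Exons, introns and transcript sequences came from GENCODE M21, and 126 rows had a sequence. The host is the gene with the longest overlap. The hexamers AATAAA and ATTAAA were searched on the row's own strand only, in the last 50 bases, and overlapping copies counted.

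Genes were kept by filterByExpr, which left 17004, scaled with TMM factors and tested by edgeR 4.0.16 (R 4.3.3) with the quasi-likelihood F test, two-sided, with a single term for group and a threshold of 0.05 on Benjamini-Hochberg adjusted p over all tested genes. SE is the absolute log2 difference divided by the square root of F. CPM use the TMM-scaled library size, class sums are shares of the raw total, and log2 CPM a prior count of 2. The fit was tested on simulated data. Alternatives used DESeq2 1.42.0, limma 3.58.1 (voom with sample weights, and log2 of FPKM plus 1 or 0.1), other scaling, no filter, a replicate block, each library left out, and other definitions of the classes. Named rows were, in each class, the 6 highest by FPKM, the 4 of smallest p and the 3 most variable, plus the 2 nearest the threshold on each side and the 3 overlapping rows highest and lowest relative to the host. Of these, 1 row and its host gene are not reported here. The intervals cover counting error only.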

Additional observations from a re-analysis of the deposited data

Results flagged for a closer look

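Dixon's test was applied to log2 CPM of the 30 named rows and to the summed counts of both classes, in each group of 4 libraries. It marked 8 of 64 groups, 5 of them for sIVs replicate 4. Chance marks about 1 in 20 groups, but these rows include some chosen for their spread and the groups share libraries, so the count cannot be read against that rate. The value is the gap to the nearest library divided by the range of the group. In the sIVs group, sIVs replicate 4 was far below the others for Gm42732 (0.829, with 9.76 CPM), Gm42748 (0.879, with 2 counts), Gm45884 (0.86, with 0.589 CPM) and Gm44136 (0.908, with 0.524 CPM), and far above them for Particl (0.917, with 32.0 CPM). sIVs replicate 1 was far below for D930036K23Rik (0.859, with 2.58 CPM). In the PBS group, replicate 3 was far above for Gm37614 (0.97, with 9.14 CPM) and replicate 1 for Gm48069 (0.871, with 4.91 CPM).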

How the results depend on the processing

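No gene of all those tested and no TEC row passed an adjusted p of 0.05 in any fit: edgeR with TMM, upper-quartile or total-count scaling, with no filter, with the replicate block, or with each library left out, DESeq2, and limma in 3 forms. At an unadjusted p under 0.05 the count was 255 in the main fit, 322 by DESeq2, 455 by limma-voom, 803 without the filter, and 136 to 958 with a library left out. The median log2 difference of overlapping rows was -0.45 to 0.01 over the other tools and scalings and -0.50 to -0.07 with a library left out, the last without sIVs replicate 4. That of intergenic rows was -0.05 to 0.05 and -0.08 to 0.04.

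The replicate numbers were not taken to pair the libraries, since that required a correlation of deviations over 0.1 for every number. It was 0.596, 0.0246, 0.227 and 0.514 for numbers 1, 3, 4 and 5. For numbers 1, 4 and 5 the PBS and sIVs libraries correlated best with each other, and for number 3 they did not. With the replicate block 0 genes passed, 588 had an unadjusted p under 0.05, and the medians were -0.44 and -0.03.

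Among named rows, 18 of 480 alternative values changed sign, and the cause was not tested. Under limma-voom with sample weights these were Gm43980 (0.050), Gm42748 (0.17), Gm37583 (-0.043), Gm43231 (0.17), Gm37174 (0.26) and Gm37764 (0.14). With a library left out the ranges were -0.011 to 0.25 for Gm43622, -0.50 to 0.28 for Gm42748, -0.056 to 0.73 for Gm47160, -0.27 to 0.12 for 1700029B24Rik, -0.17 to 0.24 for A930005G22Rik, -0.77 to 0.23 for Gm43231 and -0.29 to 0.12 for Gm37174.

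A minimum of 200 counts gave 143 overlapping and 85 intergenic rows, and 1000 counts gave 19 and 23. Same-strand overlap alone gave 41 overlapping rows, and a distance of at least 5000 bases left 19 intergenic ones. The hexamer share of overlapping rows was 31.6% at 1000 counts and 24.4% for same-strand rows alone, and that of intergenic rows 41.5% with AATAAA alone. The number of pairs whose ratio varied less than the row was 75 and 11 for overlapping and 30 and 8 for intergenic rows at 200 and 1000 counts, where other rows entered, and 23 for intergenic rows without sIVs replicate 4, a setting chosen after seeing the data. In sIVs replicate 4, 36.8% to 61.0% of overlapping and 10.6% to 15.8% of intergenic rows were more than 4-fold lower under every definition. Low counts limit the folds there: 34 of the 41 such rows had at most 20 counts.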
